A study of Drosophila melanogaster with 3 samples.

Results

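The chitin genes described here encode the proteins that make, modify, organise, break down and bind chitin in Drosophila melanogaster. They were taken from the annotation by symbol: all protein-coding genes of the Cht, Cda, obst- and Idgf families together with kkv, Chs2, mmy, serp, verm, knk, rtv, Gasp, reb and exp. The rule returned 37 of the 13945 protein-coding genes on the major chromosome arms. By role they were 5 genes of synthesis, 2 of matrix organisation, 5 deacetylases, 10 chitinases, 6 chitinase-like growth factors and 9 chitin-binding proteins.

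Binding of Blimp-1 at these genes was read from peak lists of chromatin immunoprecipitation with sequencing (ChIP-seq), in 3 biological replicates of a single group. Per the labels, each was made from whole prepupae, males and females together, of a stable transgenic line in which Blimp-1 carries GFP at its C terminus, and the sonicated chromatin was precipitated through GFP, although the antibody field of the labels names Blimp-1. The animals' age is given as unknown, and the promoter that drives the transgene is not named there. The labels name a possible control experiment, which was not analysed here, and whether the signals were corrected with it is not stated. The samples form no treated and untreated groups, so no test between groups was possible and the results are descriptions with the spread over replicates. In whole animals, a site bound strongly in few cells and a site bound weakly in many cannot be told apart.

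Chitin is the fibrous sugar polymer of the insect cuticle, of the tracheal lining and of the gut's peritrophic matrix. A membrane-bound synthase extrudes it from an activated amino sugar, deacetylases and organising proteins arrange the fibres, peritrophin-type proteins bind them, and chitinases degrade the old material at each moult. Prepupae rebuild their cuticle under the control of pulses of the steroid hormone ecdysone. Blimp-1 is a zinc finger repressor induced by ecdysone, and is also known for a role in the trachea and cuticle of the embryo.

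A reproducible site is a merged peak from the list that the authors filtered by the irreproducible discovery rate (IDR), and it belonged to a gene when its summit lay in the gene body or within 2 kb of it. The list gave 4990 sites in all, with deposited signals from 205 to 10091, and 28 of them belonged to chitin genes. Signal is also given as relative signal. This is the signal of the site in a replicate divided by that replicate's median over the reproducible sites where it had a peak. Read counts are not part of the lists, and library depth is therefore unknown.

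The sequences that follow are the closest matches to the known Blimp-1 (PRDI-BF1) consensus, a motif of 11 bases built around GAAAG, within 100 bp of the summit of sites at chitin genes. They are shown so that the matches at members of several roles can be compared by eye. Each is written in the orientation of the match, with the 11 matching bases in capitals, and comes from the release 6 genome (dm6). Of 11 sites with at most 1 mismatch, the 8 strongest outside the arm that holds reb and exp are given, plus the weaker kkv site, which was added after its values were seen because it is a full match. The reb site and the weakest Cda5 site also had 1 mismatch and are not shown. Positions of mismatches are counted from 1 at the 5′ end of the consensus.
verm: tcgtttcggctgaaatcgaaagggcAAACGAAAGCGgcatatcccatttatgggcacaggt
Cda4: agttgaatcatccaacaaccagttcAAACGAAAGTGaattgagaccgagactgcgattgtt
obst-A: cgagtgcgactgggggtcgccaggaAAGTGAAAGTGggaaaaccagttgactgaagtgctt
Cht2: aaaggcggaAAGTGAAACCGctctgagct
serp: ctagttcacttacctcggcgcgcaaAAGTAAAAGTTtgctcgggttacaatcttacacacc
obst-B: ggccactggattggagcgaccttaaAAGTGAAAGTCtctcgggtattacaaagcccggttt
kkv: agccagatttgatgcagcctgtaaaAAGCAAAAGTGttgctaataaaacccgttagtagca
Cht6: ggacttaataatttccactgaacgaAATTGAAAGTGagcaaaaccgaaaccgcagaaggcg
kkv, weaker site: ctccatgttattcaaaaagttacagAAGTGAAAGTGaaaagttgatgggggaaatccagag

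Coordinates given here are those of the whole printed stretch, the match with its context. The verm stretch was chr3L:19694200-19694260 on the plus strand, and its match lay 6 bp from the summit, with the mismatch at position 3. The Cda4 match (chrX:22633944-22634004, minus strand) also had its mismatch at position 3 and lay 5 bp from the summit. The obst-A match (chrX:20240970-20241030, plus strand) and that of the weaker kkv site (chr3R:5386240-5386300, minus strand) were complete and shared the same 11 bases, 16 and 35 bp from their summits. The Cht2 match (chr3L:1755107-1755135, minus strand, mismatch at position 9) lies in a 5′ UTR and is given with less context. Those of serp (chr3L:19700047-19700107, plus strand) and of the kkv site near its start (chr3R:5392176-5392236, plus strand) had their mismatch at position 5. The obst-B match (chr2L:10035959-10036019, minus strand) differed at position 11, and the Cht6 match (chrX:10022069-10022129, plus strand) at position 3, 85 bp from the summit.

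The site of highest signal among the chitin genes, in an intron of the chitinase gene Cht7, had no match with fewer than 2 mismatches. Its summit window at chr3L:3099132-3099332 is given whole, plus strand, with the 4 copies of GAAAG on either strand in capitals (CTTTC is GAAAG on the other strand).
Cht7: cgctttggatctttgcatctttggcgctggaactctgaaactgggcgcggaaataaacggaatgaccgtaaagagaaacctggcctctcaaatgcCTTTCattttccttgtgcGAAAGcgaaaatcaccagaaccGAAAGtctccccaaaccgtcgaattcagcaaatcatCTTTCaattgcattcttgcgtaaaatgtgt

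Of the 37 chitin genes, 18 had at least 1 reproducible site (48.6%), against 30.3% of all protein-coding genes. Deacetylase and synthesis genes had sites most often, with 4 of 5 in each group. Of the chitinases 4 of 10 had a site, of the chitinase-like growth factors 3 of 6, of the chitin-binding proteins 3 of 9, and of the matrix organisers 0 of 2. The roles also differed in median gene length, at 8457 bp for synthesis and 7039 bp for deacetylase genes. It was 2853 bp for the growth factors, 2496.5 bp for chitinases, 2403.5 bp for matrix organisers and 1293 bp for chitin-binding genes. Whether the counts by role go beyond gene length was not tested. A single site was present at 9 genes, 2 sites at 7 genes, 3 at Cda5 and 4 at exp.

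A promoter site, with its summit within 1000 bp of an annotated transcription start site (TSS) of the gene, was present at 9 members (24.3%), against 18.7% of all protein-coding genes. These were kkv, mmy, exp, Cda4, Cda5, Cht2, Cht7, Cht11 and Idgf2. No chitin-binding gene was among them. Counted by pairs of a gene and a site, 16 of 30 summits lay in introns (53.3%, against 41.0% over all genes), and 3 in 5′ UTRs (10%, against 7.61%). Upstream of the gene lay 7 (23.3%, against 31.9%) and downstream 4 (13.3%, against 17.8%). Coding sequence and 3′ UTRs held 0, where the shares over all genes were 0.746% and 0.890%.

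**Figure D1:**
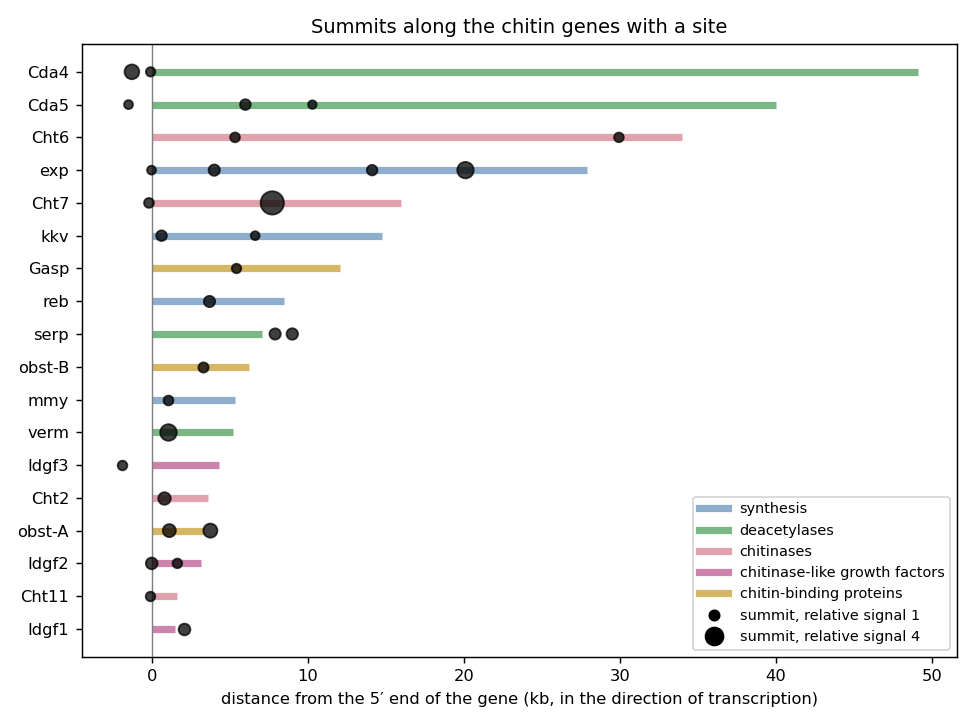
Position of each summit (black circles, area rising with mean relative signal over the replicates) along the 18 chitin genes with a site, in kb from the 5′ end of the gene in the direction of transcription; coloured bars are the gene bodies, by role. The largest circle is the intronic Cht7 site, and summits upstream of the gene include both of Cda4 and that of Idgf3.

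Synthesis genes carried 8 sites, at kkv, mmy, reb and exp. The gene kkv encodes the chitin synthase of epidermis and trachea. Its site 631 bp downstream of the TSS, in an intron on 3R from 5392098 to 5392681, had relative signals of 1.49, 1.24 and 0.669 in replicates 1, 2 and 3, a mean of 1.13 ± 0.421 (SD, n = 3). Replicates 1 and 2 were above the median site and replicate 3 below it, so the site could not be set apart from the median site. The weaker kkv site, 6631 bp downstream of the TSS, was at 0.803, 0.765 and 0.348, below the median site in every replicate, and lay nearer to the TSS of CG14668. It ranked 3935 among the 4990 sites although it holds the full consensus.

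The gene mmy encodes the enzyme that makes UDP-N-acetylglucosamine, the activated sugar from which chitin is built. Its single site, on 2L from 6472707 to 6472992, was intronic, with its summit 771 bp upstream of the second annotated TSS, and was at 0.658, 1.55 and 0.522 (0.908 ± 0.556, SD, n = 3). Replicate 2 stood above the others. Chs2, which encodes the other chitin synthase of the fly, had no site, and the nearest summit was 67452 bp from the gene.

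The paralogous neighbours reb and exp encode proteins needed, with the synthase, for chitin deposition. The gene exp had the most sites of any chitin gene. Its strongest, in an intron 20105 bp downstream of the TSS on 2R from 11959394 to 11960098, was at 3.76, 4.06 and 2.15 times the median site (3.32 ± 1.03, SD, n = 3) and ranked 336. All replicates were above the median site there, and the nearest TSS was that of PI31, 8992 bp away. The other 3 exp sites lay 11 bp upstream of the TSS and 4007 and 14124 bp downstream of it, with mean relative signals of 0.654, 1.34 and 1.11. The single reb site, 3666 bp into the gene in an intron (2R, 11909013 to 11909209), was at 1.68, 1.51 and 0.824 (1.34 ± 0.451, SD, n = 3).

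The matrix organisers had no reproducible site. The gene knk encodes a membrane-anchored protein that organises chitin fibres, and rtv another membrane-associated protein of chitin organisation. The strongest peak of the pooled list in the knk window reached a deposited signal of 196, just under the 205 of the weakest reproducible peak. In the rtv window it reached 100.3, and the nearest reproducible summit was 172679 bp away. The member site of lowest deposited signal was the weakest site of Cda5, at 210.4. The list was filtered by IDR, so 205 is the lowest signal observed in it and not a stated cut-off.

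Deacetylase genes carried 8 sites. The genes verm and serp encode secreted chitin deacetylases that limit the length of tracheal tubes, and they are neighbours on 3L, both on the minus strand. The verm site, in an intron 1024 bp downstream of the TSS (19694030 to 19694434), was at 2.84, 4.86 and 2.46 (3.39 ± 1.29, SD, n = 3) and ranked 296, with all replicates above the median site. Between the genes, downstream of serp and upstream of verm, lay a pair of sites (19698906 to 19699118 and 19699992 to 19700222). By the 2 kb rule these belonged to serp, while the nearest TSS was that of verm, 3748 and 4847 bp away. The first was at 1.46, 1.69 and 1.01 (1.39 ± 0.347, SD, n = 3) and the second at 1.52, 1.55 and 0.896 (1.32 ± 0.369, SD, n = 3).

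Among the deacetylase family genes of less studied function, Cda4 had its sites upstream although its body spans 49077 bp. The stronger one, 1269 bp upstream of the TSS on X from 22633780 to 22634171, was at 2.58, 3.26 and 1.90 (2.58 ± 0.679, SD, n = 3) and ranked 526, with all replicates above the median site. The other was 70 bp upstream at 0.789 ± 0.271 (SD, n = 3). At Cda5, the strongest of 3 sites lay 134 bp upstream of an internal TSS in an intron (2L, 59358 to 59478) at 0.926, 1.48 and 1.07 (1.16 ± 0.288, SD, n = 3). Another Cda5 site, 1486 bp upstream of the gene, had no peak in replicate 3 and lay nearer to the TSS of dbr. Cda9 had no site.

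Chitinase genes included the strongest site of the module. Cht7 encodes a member of the chitinase family, and the intronic site 7726 bp downstream of its TSS (3L, 3098968 to 3099485) was at 8.12, 7.83 and 5.48 times the median site in replicates 1, 2 and 3 (7.15 ± 1.45, SD, n = 3). It ranked 71 among all sites, its deposited signal was 2814, and the nearest TSS of any protein-coding gene was that of Cht7. The promoter site of Cht7, 177 bp upstream of the TSS, was at 0.903 ± 0.0951 (SD, n = 3).

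The other chitinase sites were weaker. At Cht2 the summit lay in the 5′ UTR 119 bp downstream of a TSS (3L, 1754956 to 1755384) at 1.74, 2.26 and 1.22 (1.74 ± 0.524, SD, n = 3), above the median site in each replicate. Both sites of Cht6, in introns 4646 and 29243 bp downstream of a TSS, were near the median site at 0.890 ± 0.137 and 0.860 ± 0.336 (SD, n = 3). The more distant one lay nearer to the TSS of Yp2, 5853 bp away. The Cht11 promoter site was at 0.822 ± 0.122 (SD, n = 3) and also lay in the windows of Tmf and CG4558. No reproducible site belonged to Cht4, Cht5, Cht8, Cht9, Cht10 or Cht12, and of these Cht4, Cht8, Cht9 and Cht12 lie next to each other on 2R. The strongest pooled peak in the window of Cht5, a chitinase gene of moulting, had a deposited signal of 146.0.

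The Idgf genes encode secreted growth factors that resemble chitinases but lack their activity, and 3 of them form a cluster on 2L. A site at the TSS of Idgf2, from 16447207 to 16447413, also lay in the window of Idgf1 and reached 1.87, 1.38 and 1.17 (1.47 ± 0.359, SD, n = 3). A site at an internal Idgf2 TSS, from 16448928 to 16449048, also lay in the window of Idgf3, 1935 bp upstream of that gene, at 0.946, 0.581 and 1.03 (0.851 ± 0.237, SD, n = 3). The sites of Idgf1 and Idgf3 were therefore the same as those of Idgf2, and both also lay in the window of CG5888. Idgf4, Idgf5 and Idgf6 had none. The nearest summit to Idgf5 was 3087 bp away, outside the window.

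Among genes for chitin-binding proteins, obst-A, obst-B and Gasp had sites, and obst-E, obst-F, obst-G, obst-H, obst-I and obst-J did not. obst-A encodes a matrix protein that binds chitin in the cuticle. Its intronic site, 1129 bp downstream of the TSS (X, 20240834 to 20241145), holds the full consensus shown above and was at 1.99, 2.63 and 1.13 (1.92 ± 0.753, SD, n = 3). A stronger site between obst-A and Peritrophin-A (X, 20243400 to 20243853), nearer to the TSS of Peritrophin-A, was at 2.51, 2.59 and 1.86 (2.32 ± 0.405, SD, n = 3). Both obst-A sites were above the median site in all replicates. The intronic obst-B site (2L, 10035891 to 10036112) was at 0.871, 1.54 and 0.597 (1.004 ± 0.487, SD, n = 3), which did not set it apart from the median site. The intronic Gasp site was at 0.972, 0.967 and 0.463 (0.801 ± 0.292, SD, n = 3), below the median site in every replicate but only slightly in replicates 1 and 2.

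**Figure D2:**
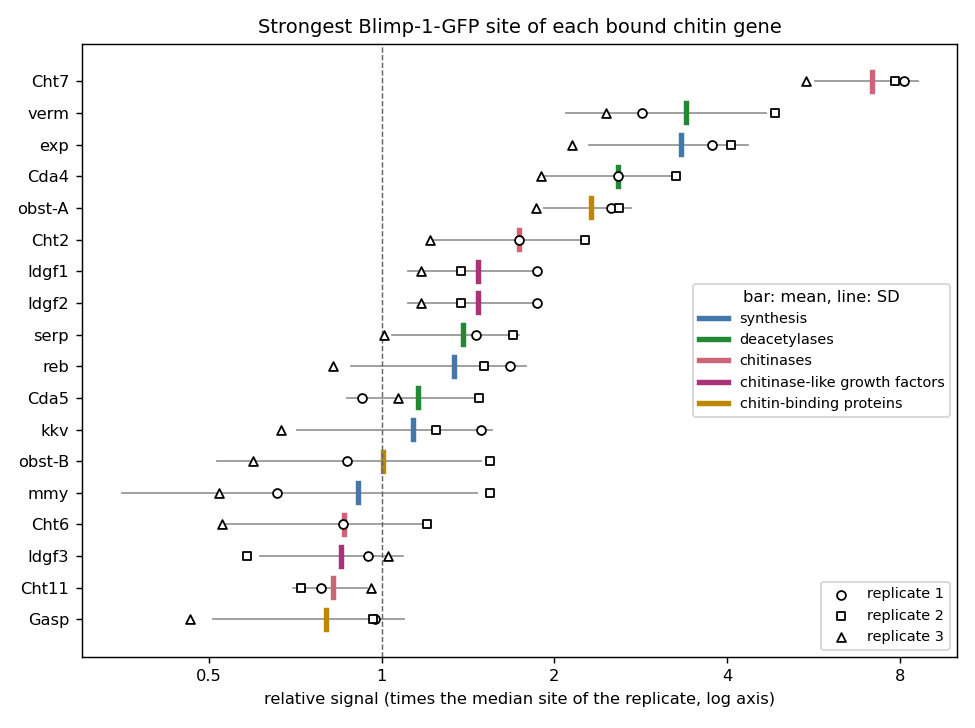
Relative signal (log axis, 1 is the median site of the replicate) at the strongest site of each of the 18 chitin genes with a site, by replicate (open symbols), with the mean (coloured bar, by role) and SD (grey line). Idgf1 and Idgf2 share their strongest site. At Cht7, verm, exp, Cda4, obst-A, Cht2, Idgf1, Idgf2 and serp every replicate lies above 1, and replicate 3 is the lowest of the 3 at most genes.

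Over all 28 sites the signal was close to that of other sites. Their median of the mean relative signal was 1.12, against 0.983 over all sites, and the medians within the replicates were 1.14, 1.43 and 0.951, a mean of 1.17 ± 0.241 (SD, n = 3). The distance of that mean from the median site, at 1, was smaller than this SD. Among the strongest 10% of all sites were 3 of the 28 (10.7%). These were the intronic sites of Cht7, verm and exp.

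Most of the chitin gene sites were among the strongest peaks of every replicate, using as many peaks per replicate as there were sites. All replicates supported 22 of 28 (78.6%, 95% Wilson interval 60.5 to 89.8), against 56.9% of all sites, 2 replicates supported 4, and 1 replicate supported 2. The interval covers counting error only, and neighbouring sites of 1 gene are not independent. By gene, 16 members had a site supported in all replicates (43.2%), against 18.3% of all protein-coding genes. The exceptions among the 18 genes with a site were Idgf3 and Gasp, each supported by 2 replicates.

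Replicate 3 stood lower than the others at these sites. Of the 27 sites with a peak in every replicate's list, relative signal was lowest in replicate 3 at 21 (77.8%), against 47% of all such sites. Over all sites with a peak in the replicate, replicate 3 also had the lowest median deposited signal, 95.0 against 108 in replicate 1 and 183 in replicate 2. It had no peak at 589 sites, against 2 in replicate 1 and 35 in replicate 2. Sites without a peak do not enter the median by which a replicate's signals are divided. The part of these differences in the result was not tested.

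Gene length moved with the presence of a site. When all genes were put into 3 classes of nearly equal number by length, a site was present at 17.4% of the shortest, 26.8% of the middle and 46.8% of the longest class. Among chitin genes the counts were 0 of 6, 4 of 14 and 14 of 17 (82.4%). The 3 members of the longest class without a site were Chs2, Cht10 and obst-E. Median length was 3300 bp for the members and 2166 bp for all genes. Per length, the windows of the members held 0.636 sites per 10 kb, against 0.426 in those of all protein-coding genes and 0.373 over the whole arms. The part of gene length in the members' share was not tested.

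**Figure D3:**
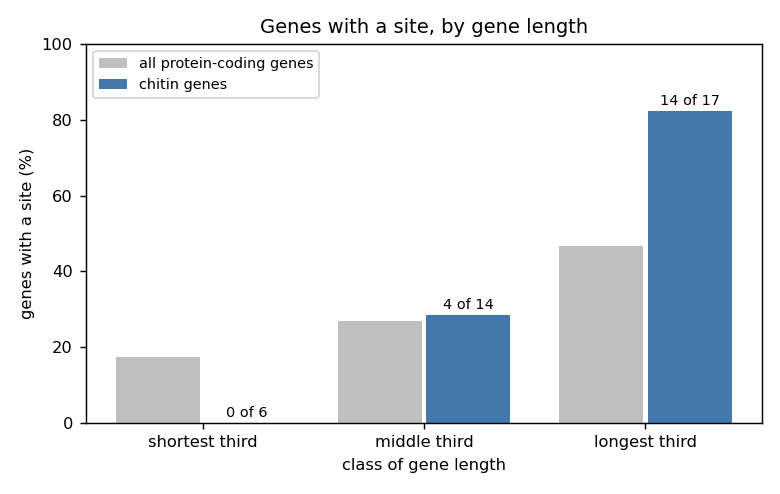
Share of genes with a reproducible site (per cent) in 3 classes of gene length, for all protein-coding genes (grey) and chitin genes (blue, with counts above the bars). The shares are 0%, 28.6% and 82.4% for chitin genes and 17.4%, 26.8% and 46.8% for all genes.

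The Blimp-1 motif was frequent at the summits of these sites. The consensus with at most 1 mismatch lay within 100 bp of 11 of 28 summits (39.3%, 95% Wilson interval 23.6 to 57.6), against 22.1% of all sites. Each site also had 1 flank window, centred 500 bp away on the side of higher coordinates only. The consensus lay in 3 of 28 of these (10.7%, against 6.41% for all sites). The core GTGAAAG, searched on both strands, lay at 7 of 28 summits (25%, interval 12.7 to 43.4), against 8.5% of all sites, and in 0 of 28 flank windows (upper Wilson bound 12.1%), against 2.73% of the flanks of all sites. The shorter GAAAG, part of the longer core, was at 22 of 28 summits (78.6%, interval 60.5 to 89.8), against 55.4% of all sites, and in 11 of 28 flanks (39.3%, against 38.7% for all sites). The intervals cover counting error only, and neighbouring sites of 1 gene are not independent.

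By gene, GTGAAAG was present at sites of kkv (both), mmy, obst-A, obst-B, Cda5 and Cht6. It was absent from the windows of the strongest sites, those of Cht7, verm, exp and Cda4. Of those strongest sites, verm and Cda4 held a consensus match with 1 mismatch, and the best matches at Cht7 and exp had 2. A complete match stood only at obst-A and at the weaker kkv site, which ranked 841 and 3935 among all sites.

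**Figure D4:**
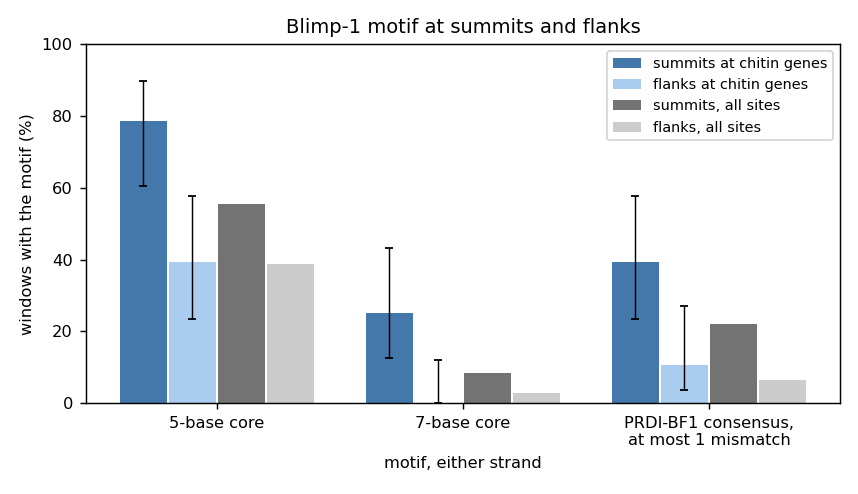
Share of windows (per cent) that hold the 5-base core GAAAG, the 7-base core GTGAAAG or the PRDI-BF1 consensus with at most 1 mismatch, at summits and at flanks 500 bp away, for the 28 sites at chitin genes (blue, with 95% Wilson intervals) and all 4990 sites (grey). Flanks were taken on the side of higher coordinates only. At the chitin genes the summit bars stand at 78.6%, 25% and 39.3%, and the flank bars at 39.3%, 0% and 10.7%.

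Most sites were nearest to a chitin gene, but some were shared with neighbours. For 23 of 28 sites the nearest TSS belonged to a member, and for 19 no gene outside the list had the summit in its window. The remaining 9 were shared with dbr, CG9536, CG5888, CG8001, CG14668, CG1172, Tmf, CG4558 or Peritrophin-A. Peak lists do not tell which of these genes a site acts on.

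Among the 19 chitin genes with no reproducible site, 14 had a weaker peak of the pooled list in their window (73.7%), against 45.3% of all genes without a site. By its label the pooled list holds background as well as peaks, so such a peak need not be a binding site. Their highest deposited signals were 196 at knk, 166 at obst-H and 146.0 at Cht5. At Cda9 the signal was only 44.8, where the lowest of the pooled list was 42.3. The windows of Cht4, Cht8 and Cht12 overlap, and each held 1 peak with the same signal of 106.6. That peak was therefore counted for each of these genes. The windows of obst-E, obst-G, obst-J, Cht9 and Idgf5 held none. The nearest reproducible summit lay 4164 bp from obst-J, at a site that ranked 267, and 830829 bp from Cht10.

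Other genes of chitin metabolism were also read for sites, and 9 of 16 had one, beside 30.3% of all protein-coding genes and 46.8% of the longest length class. In the hexosamine pathway, which supplies the sugar for mmy, 3 of 4 had a site. The strongest site of Gnpnat, an acetyltransferase gene, lay 1428 bp upstream at 3.86, 2.99 and 6.35 (4.40 ± 1.74, SD, n = 3), nearer to the TSS of CG7601 and with replicate 3 the highest. Gfat1, the gene for the first and limiting enzyme, was at 1.43, 1.55 and 0.934 (1.30 ± 0.325, SD, n = 3), and Gfat2 at 0.606 ± 0.257 (SD, n = 3). nst had none.

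Of the hexosaminidases, enzymes that remove terminal amino sugars, Hexo2 had a promoter site 201 bp upstream at 3.42, 2.80 and 4.24 (3.49 ± 0.721, SD, n = 3), all above the median site, fdl was at 0.795 ± 0.146 (SD, n = 3), and Hexo1 had no site. The strongest site of the trehalase gene Treh, 849 bp upstream, was at 1.08 ± 0.157 (SD, n = 3) and lay nearer to the TSS of CG10527. Tps1 had none. Among 7 other chitin-binding matrix genes, 3 had a site. Mur2B, a mucin gene that spans 145235 bp, had 13, of which the strongest lay nearest to a TSS of br. Mur89F was at 1.11 ± 0.0503 (SD, n = 3). Peritrophin-A had 2 sites, the stronger of which was the one shared with obst-A, and Peritrophin-15a, Peritrophin-15b, Muc68D and Muc68Ca had none.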

How the data were processed

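Peak lists on genome release 6 (dm6) were used, per the text deposited with the libraries: 1 list thresholded on IDR over the 3 replicates, and relaxed lists of 30000 peaks for each replicate and for the pooled replicates. By their label, the relaxed lists hold background as well as peaks. Column 7 holds the signal that the authors' peak caller gave each peak, on a scale that is not stated. Column 9 holds the deposited −log10 q-value, which was not used to rank sites, and column 10 the deposited summit offset. No aligner or peak caller is named in the labels or headers used here. The files carry no counts, so depth is unknown. Lists on the older build were not used here.

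The 5573 IDR peaks were merged where they overlapped by at least 1 bp into 4990 sites, each with the summit of its strongest peak. A replicate's value at a site was the signal of its strongest overlapping peak. A replicate supported a site through its 4990 strongest peaks. Genes, transcription start sites and features came from Ensembl release 115 (FlyBase 6.54), and sequences from the RefSeq release 6 genome. Wilson intervals are at 95%. Python 3.11.15, pandas 2.3.3, numpy 2.4.6 and scipy 1.17.1 were used, and the steps were tested on simulated data.

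The members, lists and alternatives were chosen with earlier results of these data known. All members are named, with values by replicate for the strongest 12, and sequences for the 8 strongest sites with at most 1 mismatch outside arm 2R. Replicate values beyond those 12 (among them kkv and mmy), the whole Cht7 window, the second kkv sequence, and the alternatives for the pathway list and the length classes were added after their values were seen. With 1 group, no test between conditions was made. Genes and sites are not replicates, and errors are the SD over 3 replicates.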

Additional observations from a re-analysis of the deposited data

How the results depend on the processing

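Of 49 alternative values, 45 stayed within 1.5 times the reported count or 1 SD or interval of the reported value, and 4 did not. This band is wide: 19 sites counted with gene bodies only, against the reported 28, still fell within it. Some alternatives could move in only 1 direction. The count of genes supported in every replicate, for example, could not fall when a replicate was left out. With only the 2786 strongest IDR peaks, the sites at chitin genes came to 17 and the genes with a promoter site to 5, while 14 members had a site (37.8%, against 18.95% of all genes). The consensus without mismatch lay at 7.14% of the chitin gene sites (3.69% of all sites), and with at most 2 mismatches at 89.3% (65.9% of all sites).

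The number of chitin genes with a site ran from 13 (35.1%, against 12.95% of all genes), counting gene bodies only, to 23 (62.2%, against 43.5%) with a 5 kb window, and was 15 (40.5%, against 17.98%) when each site went to the gene of the nearest TSS. Leaving out 1 replicate in turn gave 16 to 17 genes (43.2% to 45.9%, against 19.01% to 24.4% of all genes), 22 to 25 sites, and a mean relative signal of 6.66 to 7.98 at the strongest site. Leaving out a replicate kept sites found among the strongest peaks of both remaining replicates, and did not repeat the IDR step. The unknown depth and the unstated scale of the signal limit comparisons of signal between replicates to relative values.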
